A study of Mus musculus with 18 samples.

Results

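The genes described here encode the nuclear subunits of oxidative phosphorylation, the respiratory complexes I to IV and ATP synthase (complex V), with cytochrome c. They were taken by symbol: genes starting with Ndufa, Ndufb, Ndufc, Ndufs, Ndufv, Uqcr, Cox4, Cox5, Cox6, Cox7, Cox8 or Atp5, without the assembly factors named Ndufaf, and Sdha, Sdhb, Sdhc, Sdhd, Cyc1 and Cycs. Of 18193 genes that a probe set with a single gene symbol represented, 84 met this rule. Each was read from its probe set with the highest mean over the 18 arrays, chosen from 174 probe sets. Complex I held 34 of them, complex II 4, complex III 9, complex IV 19 and complex V 17, beside the single gene of cytochrome c. Ndufa4 and Ndufa4l2, named after complex I, were counted with complex IV, where the Ndufa4 protein is now placed. Genes were tested where at least 3 arrays read above that array's own 40th percentile, an intensity of 88.22 to 97.574. This kept 80 of the 84, among 14201 genes in all. Cox6b2, Cox7b2, Cox8b and Ndufb4 were too dim, each by the 1 probe set that carried its symbol alone. Another 10 probe sets held a symbol of this rule beside other symbols and were not used.

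Liver RNA came from 18 male mice of the inbred strain C57BL/6J, killed at 62 weeks of age, with 3 mice in each of 6 groups and 1 array for each mouse. From the age of 5 weeks, LF mice ate a diet with 10% fat and HF mice a diet with 60% fat, both without limit. LF+CR and HF+CR mice were given the same diets with 30% fewer calories than the mice fed without limit, and LF+Ex and HF+Ex mice ate without limit and had free use of a running wheel. All mice were housed singly. The design sets the diets against each other and, within each diet, restricted and running mice against their controls, and it allows a test of whether an intervention acted differently on the 2 diets. C57BL/6J is known to carry a deletion in Nnt, a gene of the mitochondrial inner membrane, so that all groups share it. Whether the mice had been fed, and at what time of day they were killed, is not given in the sources used here. A fit with a clock covariate (Arntl minus Dbp, log2) gave 8 calls for restriction on the low-fat diet, 7 higher and 1 lower, where the fit without it gave 9, all higher. Distance run and protein levels were not analysed here.

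Oxidative phosphorylation passes electrons from NADH (complex I) and succinate (complex II) through coenzyme Q to complex III, on by cytochrome c to complex IV, and from there to oxygen. Complexes I, III and IV pump protons out of the mitochondrial matrix, and ATP synthase lets them return to make ATP. The liver depends on it to burn fatty acids and to pay for gluconeogenesis and urea synthesis, and most of its subunits are encoded in the nucleus, where the factors NRF1, GABPA, YY1 and ERRA are known to act on many of their promoters.

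Promoters of 300 bases, 250 before and 50 after the start of each gene, were at hand in RefSeq (GRCm38.p6) for 68 of the 84 genes. They were searched on both strands for 4 short motifs. The NRF1 motif GCATGCGC was found in 10 of the 68 (14.7%), in 4.75% of the promoters of 11396 tested genes and in 2.8% of 27025 promoters of all genes. The GABPA motif CCGGAAG was found in 16 of the 68 (23.5%), against 15.7% of the tested genes and 9.12% of all. For the YY1 motif AAGATGGCG the count was 5 (7.35%, against 2.8% and 1.49%), and for the ERRA motif AAGGTCA it was 8 (11.8%, against 3.64% and 4.66%). These are matches of letters and not sites shown to be bound. The 4 promoters below belong to genes that rose with calorie restriction and that held a match, and the capitals mark the matches. Those of Atp5l (chr9:44920693-44920992), Cycs (chr6:50566520-50566819) and Ndufa8 (chr2:36049289-36049588) hold the NRF1 motif, Atp5l also holds GABPA and ERRA matches, and that of Ndufb6 (chr4:40279372-40279671) holds a GABPA match. All 4 lie on the minus strand and are written 5′ to 3′ along the gene.
Atp5l: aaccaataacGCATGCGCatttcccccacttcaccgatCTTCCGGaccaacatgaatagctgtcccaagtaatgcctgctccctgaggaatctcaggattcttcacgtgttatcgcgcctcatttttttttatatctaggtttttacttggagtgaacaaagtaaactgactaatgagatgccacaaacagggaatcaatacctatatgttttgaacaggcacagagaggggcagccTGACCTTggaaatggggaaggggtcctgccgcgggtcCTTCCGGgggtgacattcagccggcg
Cycs: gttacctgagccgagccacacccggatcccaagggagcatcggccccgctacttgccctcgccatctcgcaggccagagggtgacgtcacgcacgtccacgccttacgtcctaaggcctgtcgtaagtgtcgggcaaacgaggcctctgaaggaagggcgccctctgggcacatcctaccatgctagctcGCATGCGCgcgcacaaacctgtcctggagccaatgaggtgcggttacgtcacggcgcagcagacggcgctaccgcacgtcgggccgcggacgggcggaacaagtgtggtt
Ndufa8: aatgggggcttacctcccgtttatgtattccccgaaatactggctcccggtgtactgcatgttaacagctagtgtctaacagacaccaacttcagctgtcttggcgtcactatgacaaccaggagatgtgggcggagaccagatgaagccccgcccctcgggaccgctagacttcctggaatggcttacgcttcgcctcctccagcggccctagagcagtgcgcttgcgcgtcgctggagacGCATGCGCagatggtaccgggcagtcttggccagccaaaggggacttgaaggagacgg
Ndufb6: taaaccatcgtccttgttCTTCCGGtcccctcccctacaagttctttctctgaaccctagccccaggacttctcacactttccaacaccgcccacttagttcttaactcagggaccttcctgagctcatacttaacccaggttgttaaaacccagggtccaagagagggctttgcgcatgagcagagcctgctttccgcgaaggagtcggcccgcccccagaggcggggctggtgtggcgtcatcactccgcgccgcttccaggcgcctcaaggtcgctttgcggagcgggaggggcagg
The promoters of Atp5pb, Ndufv1 and Uqcrfs1, which rose as well, held none of the 4 motifs in this window, and Cyc1 and Ndufs1 had no entry.

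The hepatocyte markers were at similar levels on every array, with a summed intensity of 59680 to 65930 over 5 genes. Several arrays stood apart in ways the groups do not explain. Clps, a pancreatic enzyme cofactor, was high on 4 arrays, HF+Ex 1 (599), LF+CR 1 (386), LF 1 (260) and LF+Ex 3 (215), and read 52.6 to 62.1 on the others. On the first principal component (27% of the variance) the arrays farthest from the centre were HF 1, HF+Ex 3 and LF+CR 2. The Gapdh ratio of 3′ to 5′ probe sets, a sign of RNA quality, was 0.0964 to 0.24 on the log2 scale in LF, 0.0232 to 0.0952 in LF+CR and 0.0286 to 0.0863 in HF, so that LF did not overlap either group. The same ratio for Actb was 0.982 to 1.02 in LF, 0.745 to 0.94 in LF+CR and 0.631 to 0.839 in HF. Here too LF overlapped neither group. In whole liver, fewer cells of a type and less RNA per cell cannot be told apart.

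Over the 6 groups, 18 of the 80 tested genes (22.5%) differed somewhere by limma's F test at an adjusted p under 0.05, against 14.3% of all genes. LF+CR livers held the highest group mean for 51 of the 80 and LF livers for 21, while the lowest mean lay in HF for 28, in HF+CR for 16, in LF+Ex for 15 and in HF+Ex for 12. These counts of highest and lowest means were not made for all genes. Without LF+CR 1 the F test gave 9, and without the 4 arrays with Clps it gave 0, where 656 of all genes passed. Differences were small. The spread between mice of a group had a median SD of 0.068 on the log2 scale (0.0335 for Uqcrfs1 to 0.233 for Cox7a1), and standard errors of the log2 fold changes between 2 groups had a median of 0.0626. Relative to each gene's mean over the 18 arrays (log2), the median of the 80 genes stood at 0.175, 0.031 and 0.087 on LF+CR 1, 2 and 3. On LF 1, 2 and 3 it stood at -0.017, 0.128 and -0.004. All other arrays lay between -0.053 and 0.012. The array LF 2 thus stood with the LF+CR arrays and apart from the other LF arrays.

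Of the 5 comparisons of 2 groups that were run, restriction of the low-fat diet was the one in which some of these genes passed the test. In LF+CR against LF livers, 9 of 80 rose and 0 fell (limma, adjusted p under 0.05 over all genes), against 2.3% of all genes higher and 3.27% lower, and 25 of the 80 had an unadjusted p under 0.05, beside 2645 of the 14201. The 9 were spread over complexes I, III and V and cytochrome c, with rises of 1.13 to 1.27-fold. Over all 80 the median log2 fold change was 0.059, against -0.009 for all genes, and 55 of 80 (68.8%) were higher, against 47% of all genes. Of the 8 tested housekeeping genes 0 passed here, with a median of 0.0889. In 19 genes all 3 LF+CR arrays lay above all 3 LF arrays (8.98% of all genes), and in 1 gene, Cox7a2l, below (11.2%).

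In complex I, 4 of 33 tested genes rose. Ndufv1, the subunit that binds NADH and FMN, read 1857, 1733 and 1773 in LF and 2182, 2011 and 2032 in LF+CR. Its log2 fold change was 0.21 (SE 0.052, adjusted p = 0.025). Ndufs1, the largest core subunit with iron-sulphur clusters of the electron path, read 961, 951 and 1067 in LF and 1323, 1225 and 1141 in LF+CR (log2 0.30, SE 0.076, adjusted p = 0.027). These 2 were the only core subunits of 6 tested that passed, and none of their LF+CR arrays overlapped LF. The accessory subunit Ndufa8 read 2136, 2408 and 2211 in LF and 2884, 2646 and 2439 in LF+CR (log2 0.24, SE 0.066, adjusted p = 0.048). Ndufb6, an accessory subunit of the membrane arm, read 2474, 2682 and 2421 in LF and 2927, 2828 and 2842 in LF+CR (log2 0.18, SE 0.050, adjusted p = 0.044). In Ndufa8 the groups were separate by a narrow gap, since LF+CR 3 (2439) lay just above LF 2 (2408). Of the 33 complex I genes 15 had a negative fold change, down to -0.13 for the core subunit Ndufs7 (adjusted p = 0.388).

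Both electron-carrying subunits of complex III among these genes rose. Uqcrfs1, the Rieske iron-sulphur protein, read 3529, 3424 and 3428 in LF and 4172, 3890 and 3893 in LF+CR, a log2 fold change of 0.20 (SE 0.046, adjusted p = 0.017). Cyc1, cytochrome c1, read 3551, 3555 and 3602 in LF and 4479, 3897 and 4124 in LF+CR, a log2 fold change of 0.22 (SE 0.055, adjusted p = 0.027). The core protein Uqcrc2 had a like value of 0.22 but did not pass (adjusted p = 0.074), and the 5 small subunits lay between -0.015 and 0.071. Cycs, somatic cytochrome c, which carries electrons from complex III to complex IV, had the largest rise of the 9. It read 3247, 3399 and 3369 in LF and 4282, 4567 and 3910 in LF+CR (log2 0.35, SE 0.080, adjusted p = 0.019), with every LF+CR array above every array of the other 5 groups, of which HF 1 was the highest at 3871.

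In ATP synthase 2 of 17 genes rose. Atp5pb, subunit b of the peripheral stalk, read 3863, 4068 and 4143 in LF and 4802, 4716 and 4572 in LF+CR (log2 0.22, SE 0.051, adjusted p = 0.018). Atp5l, subunit g of the membrane sector, read 3969, 4238 and 3829 in LF and 4614, 4540 and 4508 in LF+CR (log2 0.18, SE 0.048, adjusted p = 0.035). In both genes the LF+CR arrays lay above all 15 others. None of the 5 genes of the catalytic F1 part passed (-0.033 to 0.149), nor did the c ring gene Atp5g1, which read 2346, 2796 and 2548 in LF and 3534, 2806 and 3348 in LF+CR (log2 0.33, SE 0.10, adjusted p = 0.072). Complex II had 4 of 4 genes higher and 0 past the test, with Sdhd, a membrane anchor, the highest at 0.16 (adjusted p = 0.135). Complex IV had 0 of 16 past the test and a median of 0.009. Within it, Cox7a2l, a factor of supercomplex assembly, had the lowest log2 fold change of all 80 genes in this comparison, -0.19 (adjusted p = 0.063).

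**Figure D1:**
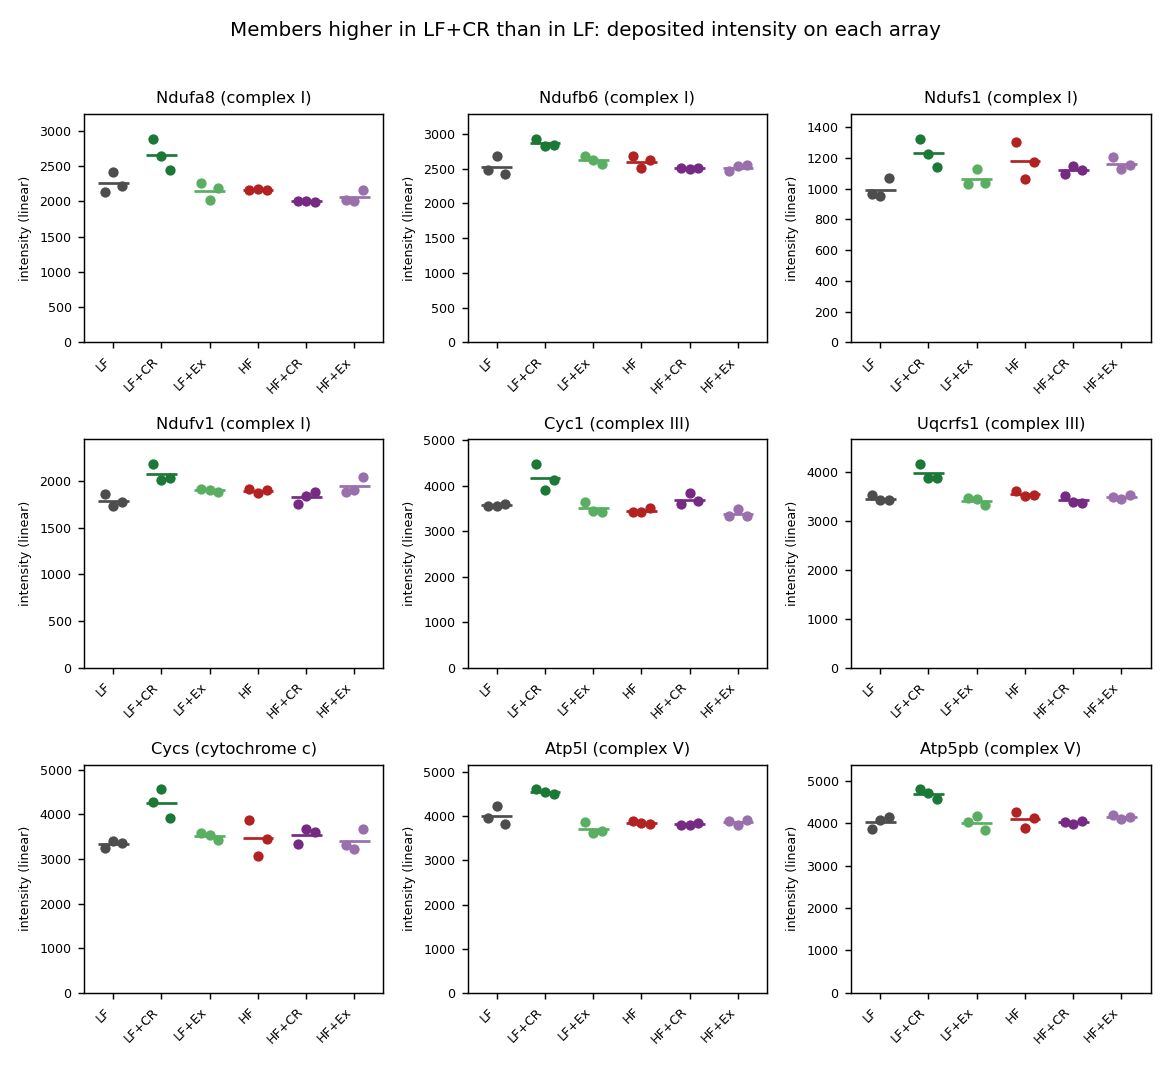
Deposited intensity (linear scale, from 0) of the 9 genes that passed the test in LF+CR against LF, on each of 18 arrays (points, 3 in each group) with the group mean (bar). In all 9 the LF+CR arrays lie above the LF arrays, by 1.13-fold (Ndufb6) to 1.27-fold (Cycs) between the means.

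These calls rest on few arrays. Without LF+CR 1, which had the highest level of these genes and of Clps in its group, 0 of the 80 passed, while the 9 genes kept log2 fold changes of 0.167 to 0.339 and had adjusted p-values of 0.0642 to 0.199, and the median over the 80 was 0.022. Without LF 1, 2 or 3 the count was 2, 5 and 3, without LF+CR 2 or 3 it was 6 and 7, and without the 4 arrays with Clps it was 0 and the median -0.002, with 240 of all genes still called. With the Gapdh ratio as a covariate 3 passed (Atp5l, Cyc1 and Ndufa8). In that fit the median of the 80 was 0.10045 and 69 were higher, against 0.059 and 55 in the reported fit. In fits without this covariate, the median of the 80 was 0.028, 0.105 and 0.037 without LF 1, 2 or 3 and 0.098 without LF+CR 2. The part of RNA quality and of pancreatic transcripts in the result was not tested beyond these fits. Of the 9 genes themselves, 2, 5 and 2 passed without LF 1, 2 or 3, and 3 (Cyc1, Ndufv1 and Uqcrfs1) without LF+CR 2. Over 33 alternatives Ndufb6 kept its call in 8 and Ndufa8 in 10, and the rest of the 9 in 20 (Atp5l) to 27 (Cyc1 and Uqcrfs1). Other probe sets of the gene existed above the dim threshold for 4 of the 9 (Atp5pb, Cycs, Ndufb6 and Ndufv1), and all pointed the same way. For Cycs they stood at 0.41, 0.40 and, for a probe set near the dim threshold, 0.04.

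**Figure D2:**
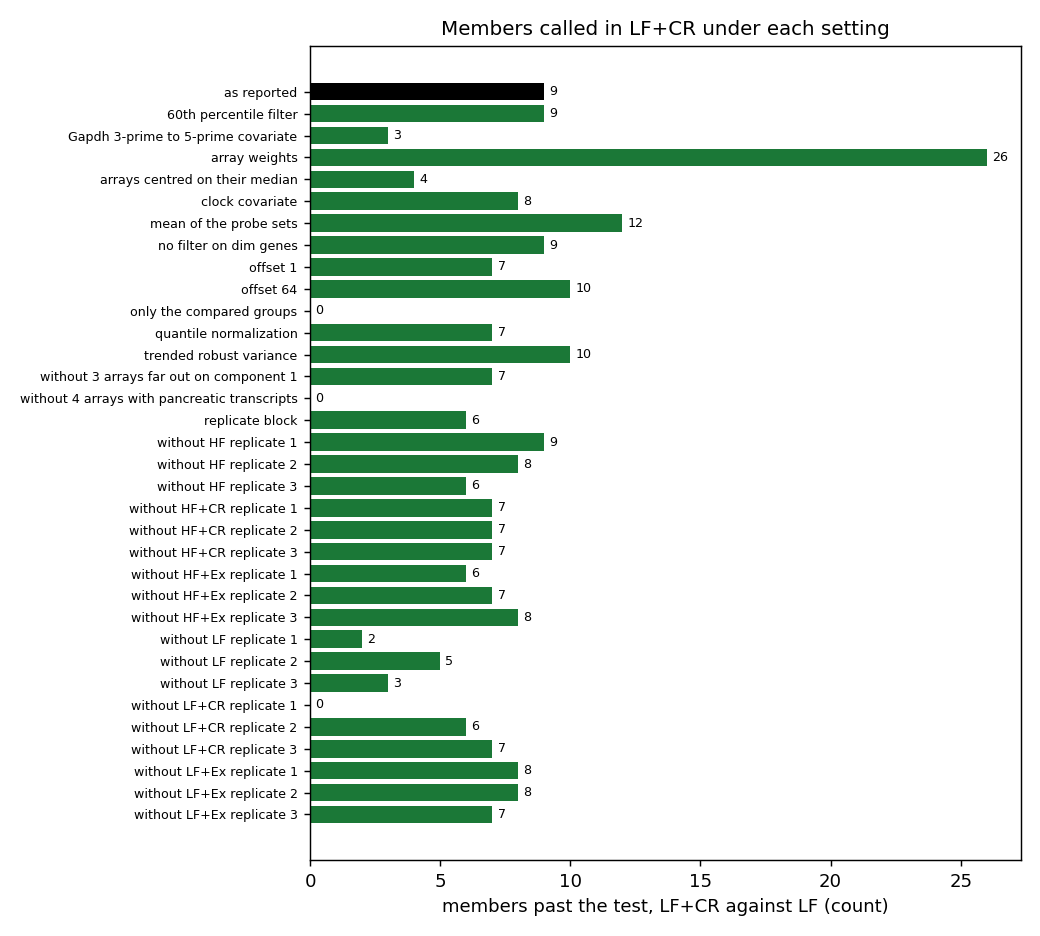
Number of the tested genes past the test in LF+CR against LF (bars, from 0) under the reported setting (black, 9) and under each alternative (green). The count is 0 without LF+CR replicate 1, without the 4 arrays with pancreatic transcripts and in a fit of the compared groups only, and 26 with array weights.

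Between LF and LF+CR the sums of the red blood cell, brown or beige adipocyte, hepatocyte and endothelial marker lists did not overlap. The summed level of the red blood cell markers was 928.5 to 1123 in LF and 496.9 to 586.7 in LF+CR, with Alas2 lower (log2 -1.10) and Hba-a1 not past the test (0.10). The brown or beige adipocyte list summed to 2844 to 3588 in LF and 413.9 to 727.2 in LF+CR, set by Elovl3, a fatty acid elongase that liver also expresses (log2 -3.98), while Ucp1, which defines those cells, read 112 to 122 in LF and 100 to 112 in LF+CR. Hepatocyte markers summed to 59680 to 65060 in LF and 65210 to 65420 in LF+CR, and sums of the pancreatic, Kupffer cell, stellate cell, striated muscle and adipocyte lists overlapped between these groups. The endothelial list lay at 1531 to 1624 in LF and 1433 to 1491 in LF+CR, and neither it nor the hepatocyte sums overlapped. The part of cell makeup in the result was not tested.

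In HF against LF livers, which asks what dietary fat did without any intervention, most of these genes were slightly lower and none passed the test. By limma 0 of 80 rose and 0 fell, against 0.627% of all genes higher and 0.268% lower, and 20 of the 80 had an unadjusted p under 0.05 (2310 of 14201 genes). The median log2 fold change was -0.077, against -0.025 for all genes, and 65 of 80 (81.2%) were lower, against 57.6% of all genes. In 28 genes the 3 HF arrays lay below all LF arrays (11.7% of all genes) and in 5 above (10.9%). All 16 tested genes of complex IV were lower, by up to 0.24, and 14 of 17 in ATP synthase, 27 of 33 in complex I and 6 of 9 in complex III.

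The lowest values of this comparison were in ATP synthase. Atp5o, the stalk subunit OSCP, read 2205, 2544 and 2263 in LF and 1978, 1970 and 1838 in HF, without overlap (log2 -0.27, SE 0.069, adjusted p = 0.076). Atp5mpl, a small membrane subunit, read 2865, 3085 and 2658 in LF and 2429, 2322 and 2383 in HF (log2 -0.27, SE 0.069, adjusted p = 0.083), again without overlap. At the other end stood 2 genes of complex I. Ndufa10, an accessory subunit of the membrane arm, read 1764, 1851 and 1850 in LF and 2337, 2030 and 2156 in HF (log2 0.25, adjusted p = 0.093), and Ndufs1 read 1300, 1062 and 1169 in HF against 961, 951 and 1067 in LF (log2 0.24, adjusted p = 0.134). Ndufa10 was separate between the groups and Ndufs1 overlapped.

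The size of this shift depended on LF 2. Without it the median was -0.043 and 53 of 80 were lower, with the Gapdh ratio as a covariate the median was -0.049 and 58 were lower, and after centring every array it was -0.043 and 56 were lower. The summed endothelial markers were 1706 to 1880 in HF and 1531 to 1624 in LF, and the pancreatic ones 1170 to 1213 in HF and 1279 to 3287 in LF. The brown or beige adipocyte list summed to 1536 to 2780 in HF and 2844 to 3588 in LF, while its member Cidea, a lipid droplet protein that fatty livers also express, was higher in HF (8.26-fold). None of these sums overlapped, and their part was not tested.

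**Figure D3:**
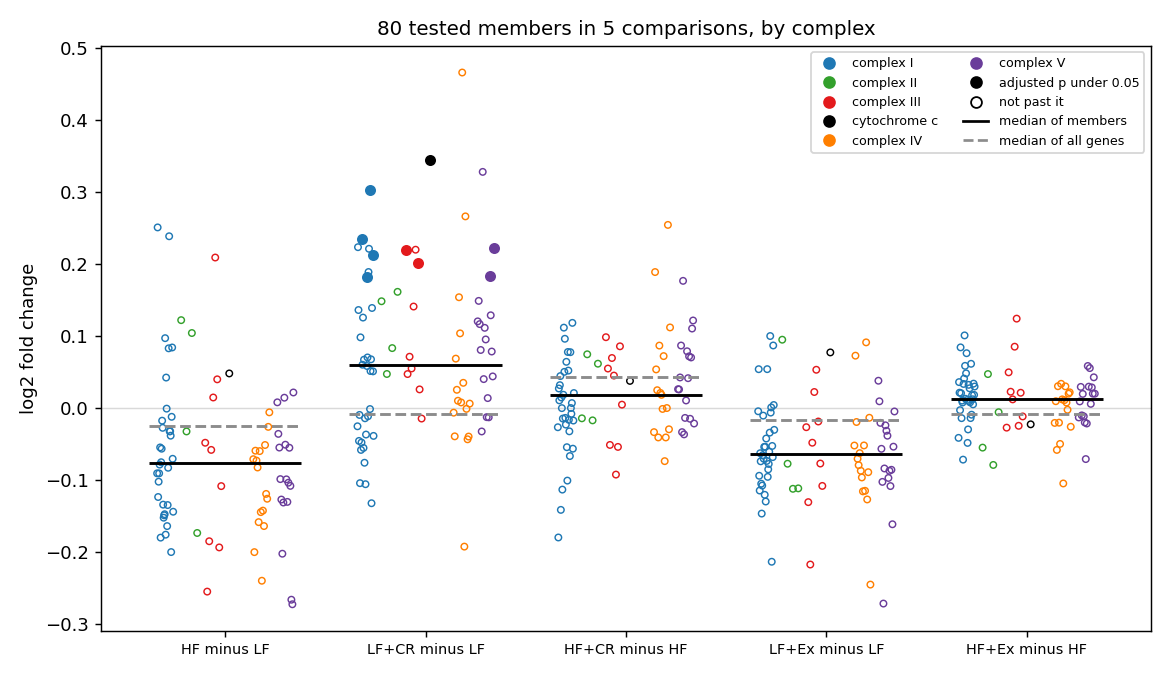
Log2 fold changes of the 80 tested genes in 5 comparisons, by complex (colours), with filled points past an adjusted p of 0.05, the median of these genes (solid line) and of all genes tested (dashed line). Filled points appear in LF+CR against LF alone (9), and the medians of these genes lie at -0.077 (HF minus LF) and 0.059 (LF+CR minus LF). Comparisons that share LF or HF arrays are not independent.

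Calorie restriction on the high-fat diet gave no call among these genes. In HF+CR against HF livers 0 of 80 rose and 0 fell by limma, against 3.52% of all genes higher and 2.55% lower, and 4 of the 80 had an unadjusted p under 0.05, beside 3620 of the 14201. The median log2 fold change was 0.018, against 0.043 for all genes, and it was -0.042 after every array was centred, and -0.027 with the Gapdh ratio as a covariate, so that its sign depended on the scaling and on this covariate (the calls over all genes were 500 higher and 362 lower, and 288 and 513 with centring). Without single arrays it stayed between 0.007 (without HF+CR 3) and 0.044 (without HF 1). In 15 genes the HF+CR arrays lay above all HF arrays (17.9% of all genes) and in 4 below (13.4%). The values ran from -0.18 for Ndufa10 (adjusted p = 0.122) to 0.25 for Cox8c, an isoform known from testis, which read 310, 379 and 373 in HF and 477, 423 and 377 in HF+CR (adjusted p = 0.126). Several other measures moved with this comparison. The Gapdh ratio was 0.0286 to 0.0863 in HF and 0.114 to 0.24 in HF+CR, while the Actb ratio overlapped (0.631 to 0.839 and 0.702 to 1.07). Summed markers in HF and HF+CR were 5504 to 8270 and 4401 to 5229 for Kupffer cells, 1706 to 1880 and 1472 to 1619 for endothelial cells, 3862 to 4106 and 3490 to 3828 for stellate cells, 1170 to 1213 and 2083 to 2647 for the pancreas, and 893.2 to 1003 and 1231 to 1404 for red blood cells. None of these ranges overlapped, and Cidea was lower in HF+CR (log2 -3.33). Of the 8 tested pancreatic genes 7 were higher, with a median log2 fold change of 0.106, and only Cela1 passed (1.81). Clps overlapped, at 53.8 to 59.6 in HF and 57.7 to 61.8 in HF+CR. The part of all these measures was not tested.

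The effect of restriction on the high-fat diet was lower than that on the low-fat diet for 4 genes and higher for 0 by the test of the difference itself (limma), against 2.39% of all genes lower and 3.35% higher, and 14 of the 80 had an unadjusted p under 0.05, beside 3366 of the 14201. The difference was -0.40 for Ndufa10 (SE 0.097, adjusted p = 0.024). This gene read 2125, 2115 and 2148 in LF+CR, above its LF values given above, and 2014, 1797 and 1937 in HF+CR, below all HF arrays. For Ndufa8 the difference was -0.35 (SE 0.093, adjusted p = 0.039). It read 2153, 2167 and 2165 in HF and 2002, 1998 and 1990 in HF+CR, which again did not overlap, in the opposite direction to the rise on the low-fat diet. Neither gene passed the test in HF+CR against HF alone, with log2 fold changes of -0.18 and -0.11.

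For the other 2 genes the high-fat groups lay closer together. Ndufv1 read 1911, 1874 and 1901 in HF and 1756, 1834 and 1877 in HF+CR, which overlapped, and the difference between diets was -0.27 (SE 0.074, adjusted p = 0.042). Uqcrfs1 read 3617, 3513 and 3542 in HF and 3509, 3397 and 3371 in HF+CR, just below, and the difference was -0.26 (SE 0.065, adjusted p = 0.031). In this comparison Cycs (-0.31, adjusted p = 0.118) and Ndufs1 (-0.37, adjusted p = 0.054) missed the threshold. Of the 80 genes 0 passed without HF 1 or HF+CR 2, 1 passed without LF+CR 1 or HF 3, 2 without LF 1, LF 3, LF+CR 2, HF+CR 1, HF+CR 3 or HF+Ex 1, and 0 without the 4 arrays with Clps or with the Gapdh ratio as a covariate. With HF 1, HF+CR 2 or LF+CR 1 left out, or with that covariate, the 4 differences stayed between -0.481 and -0.223. A dimmer probe set of Ndufa10 had a difference of -0.08.

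**Figure D4:**
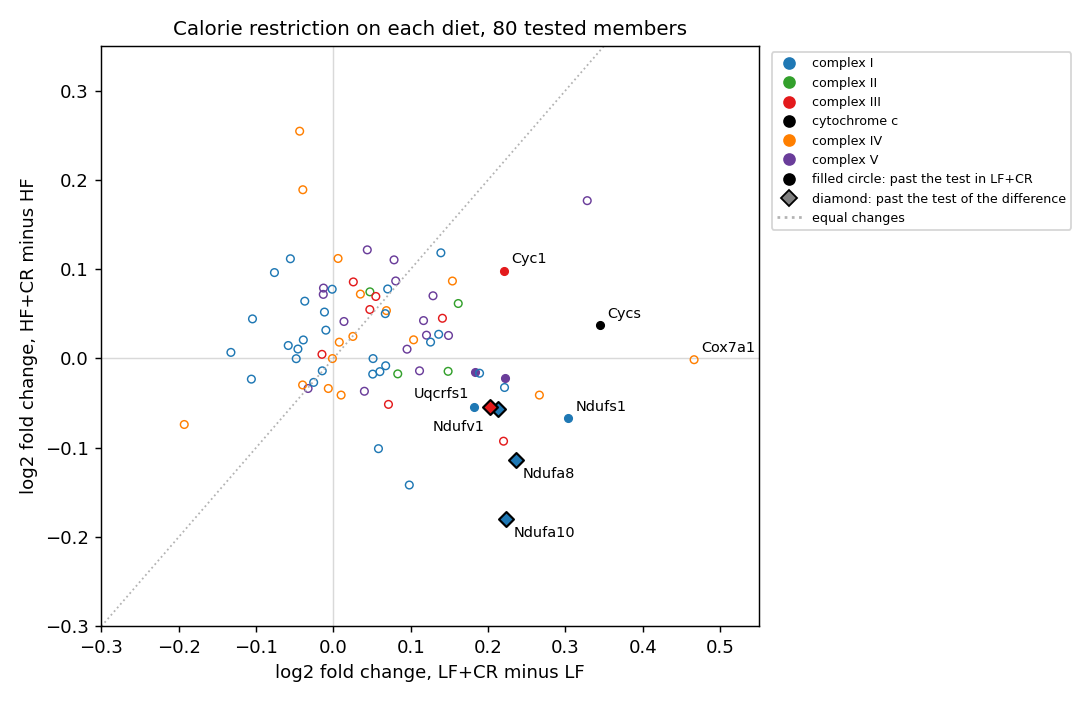
Log2 fold change with calorie restriction on the low-fat diet (x axis) and on the high-fat diet (y axis) for 80 tested genes, by complex. Filled circles passed the test on the low-fat diet and diamonds the test of the difference between diets (3 of the 4 diamonds, all but Ndufa10, passed both), and Ndufa10 (0.22 and -0.18) and Ndufa8 (0.24 and -0.11) lie farthest below the line of equal changes among the diamonds.

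With running none of these genes passed the test on either diet. In LF+Ex against LF livers 0 of 80 rose and 0 fell by limma, against 0.00704% of all genes higher and 0% lower, and 7 of the 80 had an unadjusted p under 0.05, beside 561 of the 14201. The median log2 fold change was -0.064, against -0.017 for all genes, and 66 of 80 (82.5%) were lower, against 58.4% of all genes. In 11 genes the LF+Ex arrays lay below all LF arrays (6.01% of all genes) and in 2 above (2.82%). Uqcr11, a small subunit of complex III, read 2757, 3073 and 2673 in LF and 2439, 2484 and 2370 in LF+Ex, without overlap, and did not pass (log2 -0.22, SE 0.061, adjusted p = 0.93). The lowest values were those of Atp5g1 (-0.27) and Ndufa4l2 (-0.25), and the highest those of Ndufs1 (0.10) and Sdha (0.09). This comparison shares the LF arrays with that of HF, and without LF 2 its median was -0.025 and 51 of 80 were lower.

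In HF+Ex against HF livers 0 of 80 rose and 0 fell, against 0% of all genes in either direction, and 0 had an unadjusted p under 0.05 by limma, beside 348 of the 14201. The median was 0.012 (0.004 without HF 2 and 0.023 without HF 1), against -0.009 for all genes, and the values ran from -0.11 for Cox7a1 to 0.12 for Uqcrc2. In 4 genes the HF+Ex arrays lay above all HF arrays (3.82% of all genes) and in 1 below (4.3%). The test of the difference between diets called 0 genes (0% of all genes higher and 0.00704% lower), with 1 at an unadjusted p under 0.05, beside 358 of the 14201. Uqcr11, at 0.24 (SE 0.086, adjusted p = 1), and Atp5g1, at 0.26, had the highest differences.

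Subunits with tissue isoforms were mostly dim in these livers. Cox7a1, the isoform of heart and skeletal muscle, had the widest range over the groups of all 80 genes. It read 246, 128 and 169 in LF+CR, 122, 124 and 121 in LF, 123, 106 and 107 in LF+Ex, and 84.7 to 134 on the 9 arrays of the high-fat groups. The difference between LF+CR and LF did not pass (log2 0.47, SE 0.171, adjusted p = 0.137), though the groups did not overlap. LF+CR 1 stood far above LF+CR 2. The F test over the 6 groups was passed (adjusted p = 0.029). Cox4i2, the alternative isoform of Cox4i1, passed the F test too (adjusted p = 0.042), reading 127 to 135 in LF, 106 to 123 in HF and 125 to 139 in HF+CR. For both, levels lie near the dim threshold.

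The striated muscle markers summed to 2217 on HF+Ex 2 and to 626.5 to 848.6 elsewhere. On that array the muscle isoform Cox8b read 95.3, against 67.2 to 82 on all others, while Cox7a1 (101) was not raised. Cox6b2, an isoform known from testis, read 206 on HF+Ex 1, the array with the highest Clps, and 59.6 to 72.6 on all others. The 3 genes of the c subunit of ATP synthase, Atp5g1, Atp5g2 and Atp5g3, encode the same mature protein. In LF+CR against LF they stood at 0.33, 0.04 and 0.11, and Atp5g1 passed the F test (adjusted p = 0.006).

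Some genes passed the F test over the 6 groups but none of the 5 comparisons of 2 groups that were run. Without the 4 arrays with Clps, 0 of the 80 passed the F test. Sdhd, which anchors complex II in the membrane, read 2886, 2763 and 2869 in LF, 3463, 2969 and 3118 in LF+CR, and 2465 to 2728 on the 9 arrays of the high-fat groups (adjusted p = 0.006). LF and LF+CR thus lay wholly above the high-fat groups in this probe set, but LF+Ex (2680, 2691 and 2510) lay within their range. A dimmer probe set stood at 0.02 for HF against LF. Uqcrc2, a core protein of complex III, read 2299, 2192 and 2364 in LF, 2686, 2727 and 2578 in LF+CR and 2915, 2533 and 2500 in HF (adjusted p = 0.021). Its highest group mean lay in HF+Ex, with 2887, 2648 and 3130. In this probe set LF+CR and HF both lay above LF, but a second one nearly as bright stood at 0.09 in LF+CR and 0.03 in HF, against 0.22 and 0.21. Ndufa12, an accessory subunit of complex I, read 2431, 2702 and 2584 in LF, 3027, 2671 and 2791 in LF+CR and 2471, 2297 and 2307 in HF (adjusted p = 0.029), with overlap between LF and both others. Cox7c, a small subunit of complex IV, read 95.2, 92.7 and 108 in LF and 127, 108 and 130 in LF+CR, near the dim threshold (adjusted p = 0.026).

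Sdha, Cox4i1, Atp5b and Atp5a1, reference subunits of complexes II, IV and V, passed neither the tests reported here nor the F test. Sdha, the flavoprotein of complex II, read 2952, 2654 and 2880 in LF, 3345, 2858 and 3217 in LF+CR and 3161, 2972 and 3099 in HF. Its log2 fold change in LF+CR was 0.15 (adjusted p = 0.19), and the groups overlapped. Cox4i1, of complex IV, read 6023, 5988 and 5688 in LF, 6047, 5641 and 5931 in LF+CR and 5654, 5717 and 5470 in HF, with log2 fold changes of -0.01 and -0.07. Atp5b, the catalytic beta subunit of ATP synthase, read 6203, 5812 and 6153 in LF and 6957, 6628 and 6560 in LF+CR, which did not overlap (log2 0.15, adjusted p = 0.093). Atp5a1, the alpha subunit, read 4929, 5014 and 5118 in LF and 5854, 5116 and 5428 in LF+CR, which did (log2 0.12, adjusted p = 0.232).

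Within groups the genes varied together from mouse to mouse. After the group means were taken out, the median correlation between a pair of the 80 genes over the 18 arrays was 0.39, and 84.9% of the pairs were positive, against a median of 0.0203 and 51.9% over pairs of all 14201 genes. The median was 0.461 within complex I, 0.458 within complex III, 0.427 within complex V and 0.195 within complex IV, against 0.376 between complexes. Complex IV held genes at both ends by the median correlation of a gene with the other tested genes. This was -0.111 for Cox8c, -0.089 for Ndufa4l2 and 0.04 for Cox4i2, with mean intensities of 377.2, 164.1 and 125. It was 0.626, 0.612 and 0.605 for the bright genes Cox6c, Cox8a and Cox5b. All these pairs share the same arrays, their RNA quality and their scaling, and genes are not independent replicates.

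The list of the tricarboxylic acid cycle, which feeds NADH and succinate to the chain, also holds genes of pyruvate dehydrogenase, which feeds the cycle. Of its 18 tested genes 7 rose and 0 fell in LF+CR against LF, beside 2.3% and 3.27% of all genes. Dlat, the transacetylase of the pyruvate dehydrogenase complex, read 600, 427 and 535 in LF and 1305, 1072 and 961 in LF+CR, with a log2 fold change of 1.07 (SE 0.132, limma adjusted p = 2e-04). Idh3a, the catalytic subunit of NAD-dependent isocitrate dehydrogenase, read 823, 742 and 797 in LF and 1152, 1281 and 1050 in LF+CR (log2 0.55). Idh2, the NADP-dependent mitochondrial enzyme, read 1021, 896 and 932 in LF and 1214, 1685 and 1184 in LF+CR (log2 0.50). Without LF+CR 1 the count was 4, without LF 3 it was 4, and without the 4 arrays with Clps it was 2. On the high-fat diet 0 rose with restriction and 2 fell (1 to 5 with single arrays left out), Idh2 (log2 -0.67) and Suclg2 (-0.32), beside 3.52% and 2.55% of all genes. By the test of the difference between diets 7 of 18 were lower (2 with the Gapdh covariate), beside 2.39% of all genes. The differences were -1.16 for Idh2, -1.03 for Dlat and -0.79 for Idh3a. HF against LF had 2 of 18 higher, Idh2 (0.65) and Suclg2 (0.35), beside 0.627% of all genes.

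Assembly factors build the complexes without being part of them. Of 49 tested assembly factors 1 rose and 2 fell in LF+CR, beside 2.3% and 3.27% of all genes. Ndufaf4, for complex I, rose (log2 0.36), and Sco2, a copper chaperone of complex IV, and Uqcc3, for complex III, fell (-1.03 and -0.42). Sco2 read 1327, 1322 and 1278 in LF and 756, 549 and 609 in LF+CR, a clear separation. In HF against LF 1 of 49 rose, the haem lyase gene Hccs (0.28), beside 0.627% of all genes. In HF+CR against HF 1 rose, Cox10 (0.33), and 1 fell, Sdhaf1 (-0.32), beside 3.52% and 2.55% of all genes. Of 32 regulators of mitochondrial biogenesis 0 rose and 1 fell in LF+CR, Polg, the mitochondrial DNA polymerase (-0.30), and 1 fell in HF+CR, Tfb2m (-0.34).

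The coactivator Ppargc1a read 116, 129 and 182 in LF and 250, 166 and 160 in LF+CR, overlapping groups (log2 0.39, limma adjusted p = 0.191). Nrf1, Gabpa, Esrra and Tfam had log2 fold changes of -0.07, 0.02, 0.04 and -0.06 there, none past the test. Of 12 genes of coenzyme Q synthesis 1 rose in LF+CR, Coq8b (0.52), and of 14 genes of electron and substrate entry 1 rose, Mpc1, a subunit of the pyruvate carrier (0.28), and 2 fell, Slc25a20 and Etfdh (-0.42 and -0.31). Of 17 genes of nucleotide exchange and uncoupling Slc25a5, an ADP/ATP carrier, rose (0.24) and Slc25a30 fell (-0.60). Among all genes 2.3% rose and 3.27% fell in LF+CR against LF. In HF+CR 4 of the 14 entry genes and 1 of the 17 exchange genes fell, beside 2.55% of all genes. By the test of the difference between diets 3 of 14 entry genes, 2 of 17 exchange genes and 2 of 12 coenzyme Q genes were lower and 1 exchange gene was higher. Among all genes 2.39% were lower and 3.35% higher by that test. Of the mitochondrially encoded subunits a single gene, ND5, was tested, and it read 7711, 7891 and 9133 in LF and 8849, 9089 and 8210 in LF+CR, which overlapped. Running changed 0 genes of any of these lists on either diet, where 1 of all 14201 genes passed on the low-fat diet and 0 on the high-fat diet.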

How the data were processed

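The authors deposited 1 table of linear intensities, a value for each probe set, from 18 Affymetrix Mouse Genome 430 2.0 arrays hybridised, per the labels, with biotinylated cRNA from Trizol extracts. How the intensities were summarised and scaled is not given in the sources used here. Over arrays the median ranged by 0.153 (log2), and values were used as deposited, as log2(intensity + 16). Of 45037 probe sets without controls, 34945 carried 1 gene symbol, 932 several (not used) and 9160 none. For arrays the signal over background stands for depth, and their number limits the precision.

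A model with 1 mean for each group was fitted to all arrays and 14201 genes with limma 3.58.1 in R 4.3.3, with 12 residual and 3.64 prior degrees of freedom, and p-values were adjusted by Benjamini-Hochberg over all genes, with a threshold of 0.05. Every adjusted p in the text is limma's. The pipeline was tested on simulated data. The genes, lists and rules were chosen with earlier results of these data known. Genes that could be named were those past the test, the 2 highest and lowest of a comparison, reference subunits and isoforms, dim members, and up to 3 genes of a list past the test (any others were chosen after their values were seen). Replicate numbers do not pair the arrays: 9 of 45 same-number pairs correlated above 0.1, and 33 of 90 other pairs. Alternatives were other scalings, offsets, filters and variance models, a fit of the compared groups only, covariates, and arrays left out.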

Additional observations from a re-analysis of the deposited data

Results flagged for a closer look

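The effect of calorie restriction differed between the low-fat and the high-fat diet, by the test of the difference itself (limma, adjusted p under 0.05), for 4 of 80 subunits: Ndufa10 (log2 difference -0.404), Ndufa8 (-0.349), Ndufv1 (-0.269) and Uqcrfs1 (-0.256). Of all genes, 2.39% were lower and 3.35% higher by this test. Of the 4 subunits 0 passed without HF 1, without HF+CR 2, without the 4 arrays with Clps or with the Gapdh covariate. The same test was passed by Idh2 (-1.16), Dlat (-1.03) and Idh3a (-0.79), of the list of the tricarboxylic acid cycle and pyruvate dehydrogenase. In all 7 the change with restriction was lower on the high-fat diet. Among the 4 subunits only Ndufa10 had not passed on the low-fat diet alone (adjusted p = 0.073).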

How the results depend on the processing

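No called change reversed in any alternative run, but many of these cases could not reverse. The F test has no direction, and leaving out an array of a group outside a comparison leaves its fold change as it was. Over all runs, values of named results kept their direction and side of the threshold in 2053 cases, and in 598 they kept the direction only. The F test made up 465 and 107 of these. The count of changed subunits in LF+CR against LF (9) was 4 with arrays centred on their median, 26 with array weights, 3 with the Gapdh covariate, 0 in a fit of the compared groups only (where 189 of all genes passed), 0 without the 4 arrays with pancreatic transcripts, and 0 to 9 with a single array left out. The difference of restriction between diets (4) was 7 with an offset of 64, 12 with array weights, 2 with the replicate block, 0 with the Gapdh covariate, 1 in a fit of the compared groups only, 1 when HF 1, HF+Ex 3 and LF+CR 2 were left out together, 0 without the 4 pancreatic arrays, and 0 to 5 with a single array left out. The F test (18) gave 48 with array weights, 10 with the Gapdh covariate, 0 without the 4 pancreatic arrays, and 9 to 19 with a single array left out. HF against LF (0) gave 1 with quantile normalization, with the mean of the probe sets and with the clock covariate, and 5 with array weights, and HF+CR against HF (0) gave 2 with array weights. For both running comparisons and their difference the count was 0 in every alternative. With the replicate number as a block, which does not pair these arrays, LF+CR against LF had 6. That comparison had 1 subunit called lower with an offset of 64, with the mean of the probe sets and with the clock covariate, where the reported fit had 0. With the clock covariate the calls over all genes in HF+CR against HF were 1374, against 862. With array weights such calls were 4743 for the F test (2034 as reported) and 1435 for LF+CR against LF (791 as reported). They were 1592 for the difference between diets (816), 988 for HF against LF (127) and 2174 for HF+CR against HF (862). The F test, LF+CR against LF and the difference between diets had 1347, 431 and 122 with the Gapdh covariate. Without the 4 pancreatic arrays they had 656, 240 and 287. The centred arrays called 330 genes higher and 400 lower for the difference between diets, against 476 and 340. The counts of the smaller lists (1 to 4 genes) also moved with single arrays left out. The cause was not tested. Limits are the 3 arrays in each group, of which LF 2 and LF+CR 1 stood high in these genes, the differences in the Gapdh ratio between groups, and the probe sets: 50 of the 84 genes had over 1.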
